A study of Mus musculus with 285 samples.

Results

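The mice with the most and the least Mmp12 RNA in skeletal muscle were compared across all other genes on the array. All 285 mice were ranked by the deposited value of Mmp12, which 1 probe measured. The Mmp12-high mice were the top 25% (71 mice) and the Mmp12-low mice the bottom 25% (71 mice), so 142 of 285 mice, chosen by their Mmp12 value alone, entered the comparison and 143 lay between. The 2 groups are ranges of a measured value and not treatments, and every p-value below concerns an association among these mice.

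Both groups are F2 mice of both sexes, bred by intercrossing F1 animals of C57BL/6J and C3H/HeJ in the 2 cross directions. All mice shared 1 diet and 1 age: chow of 4% fat up to 8 weeks, 12 weeks of a Western diet (42% fat, 0.15% cholesterol), and tissue taken at 20 weeks after 12 hours without food. No mouse on chow alone is among the samples, so no value below is a response to the diet. Cy3-labelled RNA of each mouse was hybridised to a 2-colour array against a Cy5-labelled pool of equal amounts of RNA from all mice, and values are log2 ratios of mouse over pool. The labels do not say which muscle was taken, nor the sex, cross direction or genotype of any mouse. Since values are ratios to a pool, levels of muscle-defining genes could not be checked against the tissue label.

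Mmp12 encodes macrophage elastase, a secreted metalloproteinase that cuts elastin and other matrix proteins and is made mainly by macrophages. In fat tissue and in the artery wall, macrophages that take up lipid switch on a set of genes that includes the integrin chain CD11c (Itgax), the lipid-sensing receptor Trem2 and the glycoprotein Gpnmb. Itgad, the integrin chain CD11d, is known from macrophages of the spleen and of lipid-rich lesions. Muscle is a tissue of several cell types, so fewer cells of a type and less RNA per cell cannot be told apart in these samples.

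Mmp12 itself, which chose the mice, spanned a wide range. Its log2 ratio had a lowest value of 0.53, a median of 0.96 and a highest value of 2.78 in Mmp12-high mice, against -4.02, -2.43 and -1.72 in Mmp12-low mice. The mice between the groups had a median of -0.39. The last mouse inside the Mmp12-high group had 0.525 and the next one outside 0.522, while the last mouse inside the Mmp12-low group had -1.72 and the next one outside -1.69. The values ran on without a gap at either limit, so the groups are the ends of one continuous distribution.

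**Figure D1:**
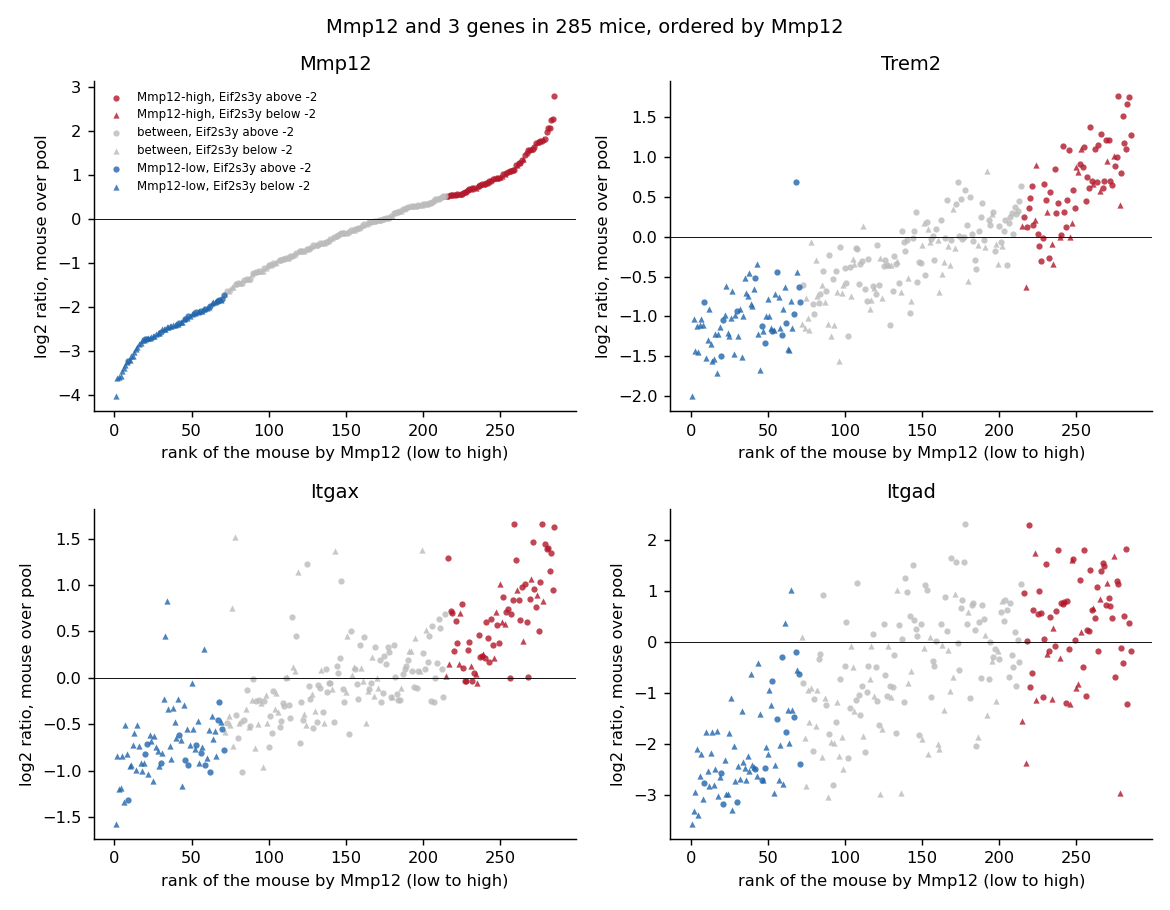
Log2 ratio of mouse over pool of Mmp12, Trem2, Itgax and Itgad in 285 mice (vertical axes), ordered by the rank of Mmp12 (horizontal axes); red are Mmp12-high mice, blue Mmp12-low mice and grey the mice between, with circles for mice with Eif2s3y above -2 and triangles for those below. Trem2 climbs along the whole order with a Pearson r of 0.88 with Mmp12, while Itgad is spread widely in Mmp12-high mice, between -2.97 and 2.28.

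The groups differed in sex as read from the Y-linked gene Eif2s3y, whose values fell into 2 ranges with a gap between -2.53 and -1.27. Eif2s3y was above -2 in 53 of 71 Mmp12-high mice and in 15 of 71 Mmp12-low mice, and in 91 of the 143 mice between. Over all mice, Mmp12 averaged -0.02 ± 1.14 with Eif2s3y above -2 (SD, n = 159) and -1.28 ± 1.40 with Eif2s3y below -2 (SD, n = 126). The 3 runs of ascending mouse number in the order of deposit also differed in this, with Eif2s3y above -2 in 2 of 63, 77 of 142 and 80 of 80 mice, and these runs held 10, 35 and 26 Mmp12-high mice against 25, 36 and 10 Mmp12-low mice. The main differences and most counts of list members are therefore given as the plain difference of the groups and again from a fit with Eif2s3y as a covariate, which compares mice at equal Eif2s3y. Values that name no fit are from the plain fit.

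More genes were higher than lower in Mmp12-high mice. At equal Eif2s3y most of the higher genes and nearly all of the lower genes lost the call. Of 11621 named genes tested with limma, 767 were higher (6.6%) and 491 lower (4.23%) in Mmp12-high mice at a Benjamini-Hochberg adjusted p under 0.05. With Eif2s3y as a covariate, 410 genes were higher (3.53%) and 27 lower (0.232%). Of the 767 higher genes 338 were called higher again, and of the 491 lower genes 18 were called lower again. Differences of at least 2-fold were few, with 11 genes higher and 0 lower in the plain fit and 10 higher and 0 lower with the covariate. The median difference over all named genes was -0.00277.

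**Figure D2:**
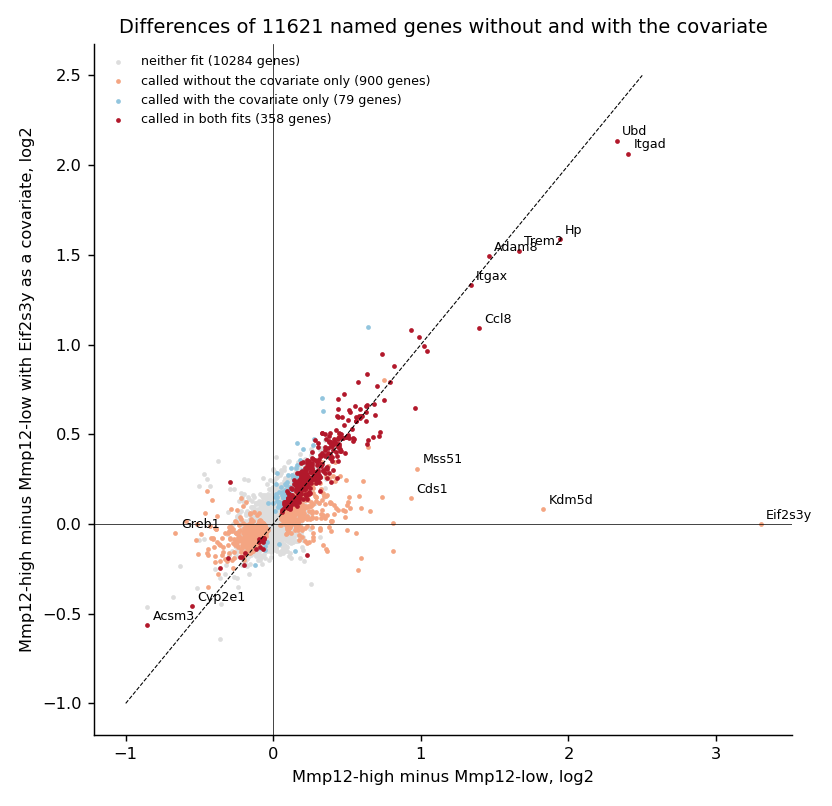
Mmp12-high minus Mmp12-low in log2 for each named gene without (horizontal axis) and with (vertical axis) Eif2s3y as a covariate; each point is a gene, coloured by the fits that called it, and the dashed line marks equal values. Itgad, Ubd, Hp, Trem2, Adam8 and Itgax lie near the line, while Kdm5d, Mss51 and Cds1 drop towards 0; Eif2s3y is at 0 by construction.

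Of the named genes other than Mmp12 and the Y-linked Eif2s3y, Itgad showed the largest difference. Its log2 ratio had a lowest value of -2.97, a median of 0.49 and a highest value of 2.28 in Mmp12-high mice, against -3.57, -2.42 and 1.01 in Mmp12-low mice. The groups overlapped, with 18 Mmp12-high mice above every Mmp12-low mouse and 70 of 71 above the Mmp12-low median. The difference was 2.40 ± 0.17 in log2 (SE), which is 5.29-fold, with a limma adjusted p of 1.97e-26, and 2.06 ± 0.19 with Eif2s3y as a covariate (limma adjusted p = 6.85e-17). Split by mouse number it was 2.38 on either side, and a block for the run of deposit gave 2.37.

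Trem2, a receptor of macrophages and microglia that binds lipids and lipoproteins, followed Mmp12 most closely. It had -0.63, 0.65 and 1.77 (lowest, median, highest) in Mmp12-high mice, against -2.0, -1.04 and 0.69 in Mmp12-low mice. Every Mmp12-high mouse lay above the Mmp12-low median, and 63 of 71 Mmp12-low mice lay below every Mmp12-high mouse. The difference was 1.66 ± 0.08, a 3.17-fold change, with a limma adjusted p of 9.23e-43, and 1.52 ± 0.09 at equal Eif2s3y. Its Pearson r with Mmp12 over all 285 mice was 0.88, the highest of the named genes.

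Itgax had -0.05, 0.63 and 1.66 in Mmp12-high mice, against -1.57, -0.73 and 0.83 in Mmp12-low mice. In this gene 67 of 71 Mmp12-low mice lay below every Mmp12-high mouse. The difference was 1.34 ± 0.07 (2.53-fold, limma adjusted p = 7.82e-37) and stayed at 1.33 ± 0.08 at equal Eif2s3y. Itgax and Itgad are neighbours in the RefSeq gene order, with 1 gene between them. Of the 10 measured genes nearest to Itgad, Itgax and Pycard, the gene of an inflammasome adaptor, were called in both fits and the others were not. Of all 11621 named genes 358 were called in both fits. Pycard had 0.42 ± 0.06 in the plain fit and 0.46 ± 0.07 at equal Eif2s3y. Of 14 measured leukocyte integrin genes 3 rose, Itgad, Itgax and their partner chain Itgb2 (0.15 ± 0.02), and these stayed called at equal Eif2s3y. Of all named genes 6.6% rose and 4.23% fell in the plain fit, and 3.53% and 0.232% at equal Eif2s3y. Itgad and Itgax are among the genes most like Mmp12, so this count says little about integrins as a set. Itgal, the chain CD11a, differed by 0.21 ± 0.09 without a call, and Itga4 fell by 0.10 ± 0.03 and was not called at equal Eif2s3y.

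The 8 named genes whose values were most like those of Mmp12, by Pearson r over all 285 mice, were Trem2, Itgax, Ubd, Adam8, Itgad, Ctss, Hp and Gpnmb. Their r ran from 0.61 for Gpnmb to 0.88 for Trem2; these r are descriptions over arrays that share 1 pool, and no test is attached because Mmp12 chose the mice. RefSeq promoter windows of build GRCm38.p6, from 250 bases before to 50 bases after a start, were at hand for Mmp12, Trem2, Itgax, Ubd, Adam8, Gpnmb and Ctss, 7 of the 9 genes looked up, and not for Itgad and Hp. The AP-1 motif TGANTCA, bound by factors that act in many activated cells, was searched on both strands. Each window lies near a start, so any match does as well. The motif lay in windows of 4 genes, shown because they hold it, and of the 2 Mmp12 windows only the second held it. It begins 44 bases before the second of the 2 annotated Mmp12 starts, 9 before that of Trem2, 56 before that of Itgax and 8 after that of Gpnmb. The capitals mark the motif, which occurs in 7.81% of all 32851 windows, and a match is a description of these letters and not a shown site of binding.
Mmp12, chr9:7347124-7347423, + strand: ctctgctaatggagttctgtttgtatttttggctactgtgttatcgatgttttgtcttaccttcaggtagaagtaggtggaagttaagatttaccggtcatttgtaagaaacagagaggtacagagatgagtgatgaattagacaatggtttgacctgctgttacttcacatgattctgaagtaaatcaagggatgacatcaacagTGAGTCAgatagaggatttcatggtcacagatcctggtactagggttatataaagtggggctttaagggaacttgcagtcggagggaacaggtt
Trem2, chr17:48346151-48346450, + strand: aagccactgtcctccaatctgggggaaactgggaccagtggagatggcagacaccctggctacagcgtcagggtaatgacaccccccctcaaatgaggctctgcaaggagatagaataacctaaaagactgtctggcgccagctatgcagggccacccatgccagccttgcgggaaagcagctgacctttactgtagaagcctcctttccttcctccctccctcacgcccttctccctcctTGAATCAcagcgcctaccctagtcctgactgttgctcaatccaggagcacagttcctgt
Itgax, chr7:128129300-128129599, + strand: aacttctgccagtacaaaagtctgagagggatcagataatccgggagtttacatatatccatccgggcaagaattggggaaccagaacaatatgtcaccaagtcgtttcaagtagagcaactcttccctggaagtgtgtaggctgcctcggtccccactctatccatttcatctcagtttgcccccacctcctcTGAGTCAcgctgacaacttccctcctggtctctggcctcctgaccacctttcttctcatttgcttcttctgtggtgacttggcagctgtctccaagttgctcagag
Gpnmb, chr6:49036268-49036567, + strand: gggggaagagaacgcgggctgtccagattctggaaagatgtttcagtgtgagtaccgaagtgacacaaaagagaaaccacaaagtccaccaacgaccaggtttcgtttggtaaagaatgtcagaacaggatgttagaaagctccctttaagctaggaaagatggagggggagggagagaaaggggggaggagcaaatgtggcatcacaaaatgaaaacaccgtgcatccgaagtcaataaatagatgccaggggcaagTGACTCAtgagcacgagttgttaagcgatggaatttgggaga
The PU.1 motif GAGGAAGT, for a factor that directs myeloid genes, was found on the reverse strand in the window of the first Mmp12 start and in that of Ctss, against 3.2% of all windows, and it overlaps no AP-1 match. The E-box TCACGTG of the MITF and TFE factors, found in 3.77% of all windows, was in none of the 8 windows, and the windows of Ubd and Adam8 held none of the 3 motifs.

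Ubd and Hp differed about as widely as Itgad. Ubd, the ubiquitin-like protein FAT10 that inflammatory cytokines induce, had -2.78, 0.48 and 1.75 in Mmp12-high mice, against -3.51, -2.14 and 1.34 in Mmp12-low mice. The difference was 2.33 ± 0.14 (limma adjusted p = 1.7e-30) and 2.14 ± 0.17 at equal Eif2s3y. Hp, haptoglobin, an acute-phase protein that binds free haemoglobin, had -3.40, 0.57 and 1.99 in Mmp12-high mice, against -3.38, -1.35 and 1.22 in Mmp12-low mice. The groups overlapped in both genes, and 70 of 71 Mmp12-high mice lay above the Mmp12-low median in each. The Hp difference was 1.94 ± 0.15, and 1.59 ± 0.17 at equal Eif2s3y.

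Adam8, a membrane metalloproteinase of leukocytes, had -0.36, 0.73 and 2.00 in Mmp12-high mice, against -1.75, -0.66 and 1.04 in Mmp12-low mice. Gpnmb, a glycoprotein of lipid-laden macrophages, had -0.62, 0.49 and 1.96 in Mmp12-high mice, against -1.70, -0.63 and 1.06 in Mmp12-low mice. In both genes every Mmp12-high mouse lay above the Mmp12-low median. The differences were 1.46 ± 0.09 for Adam8 and 1.02 ± 0.09 for Gpnmb, and 1.49 ± 0.11 and 0.99 ± 0.11 at equal Eif2s3y. Ctss, the lysosomal protease cathepsin S of antigen-presenting cells, differed by less but in nearly as orderly a way. It had -0.14, 0.29 and 0.88 in Mmp12-high mice, against -1.0, -0.40 and 0.41 in Mmp12-low mice, a difference of 0.68 ± 0.04. In Ctss 58 of 71 Mmp12-low mice lay below every Mmp12-high mouse.

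The remaining genes among the 15 with the largest positive plain difference fell into 2 kinds. Ccl8, a monocyte chemoattractant, was higher by 1.39 ± 0.15, Tfr2, a transferrin receptor best known from liver and erythroid cells, by 1.04 ± 0.08, and Mpeg1, the pore-forming protein perforin-2 of macrophages, by 0.99 ± 0.09. C4b, a complement component, was higher by 0.96 ± 0.11 and Kcnj14, an inward rectifier potassium channel, by 0.93 ± 0.12. All 5 stayed called at equal Eif2s3y. The others are not called at equal Eif2s3y. Eif2s3y itself differed by 3.30 ± 0.43, Kdm5d, a Y-linked histone demethylase, by 1.83 ± 0.24 and Mss51, a mitochondrial protein of muscle, by 0.97 ± 0.19, and at equal Eif2s3y Kdm5d had 0.08 ± 0.10 and Mss51 0.31 ± 0.21 with no call.

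Genes were higher in Mmp12-high mice within each Eif2s3y range as well, in sets of mice that do not overlap. With Eif2s3y above -2 (53 Mmp12-high and 15 Mmp12-low mice) 169 named genes were higher (1.45%) and 18 lower (0.155%), and with Eif2s3y below -2 (18 Mmp12-high and 56 Mmp12-low mice) 78 were higher (0.671%) and 3 lower (0.0258%). The 2 higher lists shared 56 genes, 33.1% of the first and 71.8% of the second. Of the 169 genes, 165 (97.6%) had the same sign below -2, against 57.0% of all named genes. Of the 18 lower genes, 13 (72.2%) had the same sign below -2, and the 2 lower lists shared 0 genes. Groups of 25% drawn anew within each Eif2s3y range gave 554 genes higher (4.77%) and 141 lower (1.21%). In the lower-numbered mice 737 were higher (6.34%) and 619 lower (5.33%), and in the higher-numbered mice 299 (2.57%) and 109 (0.938%).

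Itgad had a median of 0.56 in Mmp12-high mice against -2.40 in Mmp12-low mice with Eif2s3y above -2, and of -0.28 against -2.42 with Eif2s3y below -2. Its difference was 2.38 ± 0.25 above (limma adjusted p = 2.92e-10) and 1.91 ± 0.28 below (limma adjusted p = 2.63e-06). Trem2 differed by 1.58 ± 0.15 above and 1.47 ± 0.10 below. The difference of Itgad between the 2 ranges, 0.47, did not pass the limma interaction test (adjusted p = 0.945). No named gene passed that test (0 of 11621, smallest adjusted p 0.38), and 601 named genes (5.17%) had an unadjusted limma p under 0.05. With 15 and 18 mice in its smaller cells, the test could miss differences between the ranges.

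**Figure D3:**
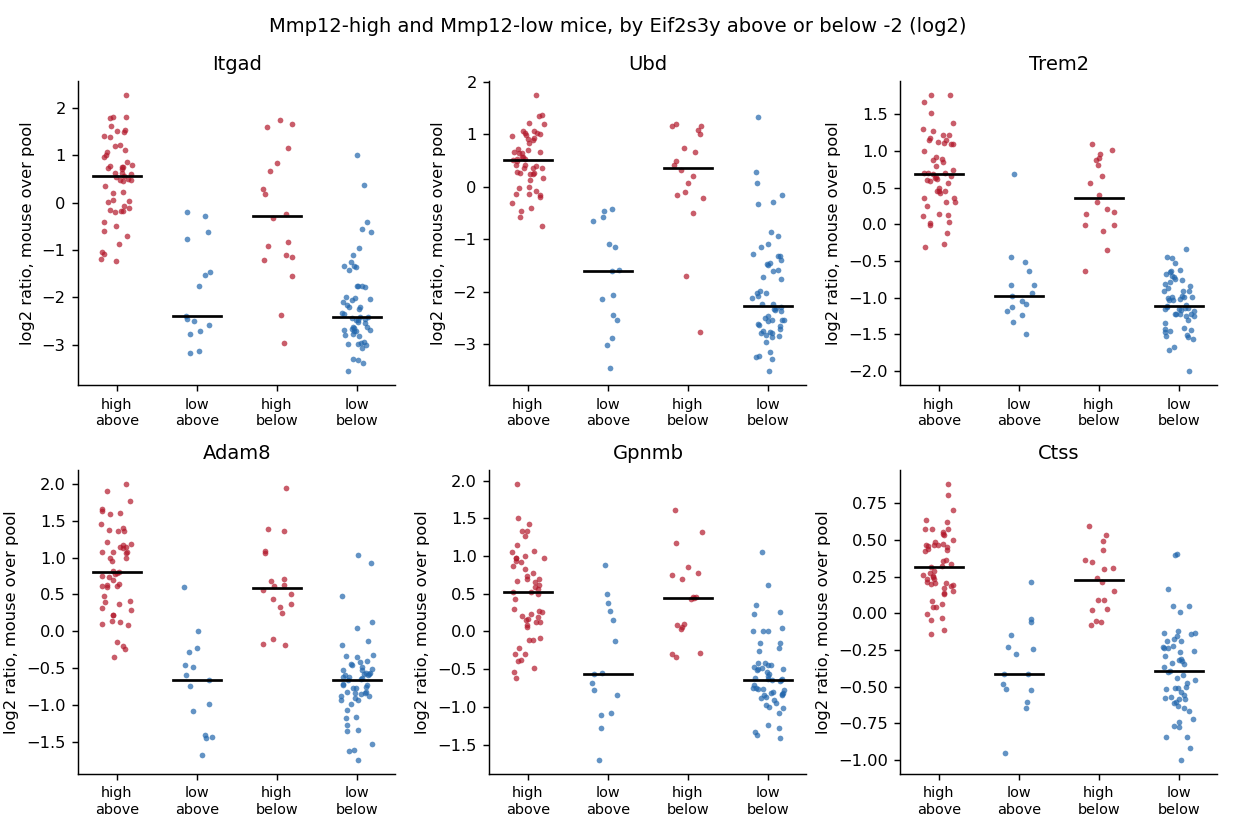
Log2 ratio of mouse over pool of Itgad, Ubd, Trem2, Adam8, Gpnmb and Ctss (vertical axes) in Mmp12-high and Mmp12-low mice, within mice with Eif2s3y above -2 (53 high, 15 low) and below -2 (18 high, 56 low); each point is a mouse and each bar a median. In all 6 genes the Mmp12-high mice have the higher median in both ranges, as for Itgad with 0.56 against -2.40 and -0.28 against -2.42.

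General macrophage genes were higher in Mmp12-high mice, by less than the genes above. Their counts stand beside 6.6% of all named genes that rose, and 3.53% at equal Eif2s3y. Of 22 measured genes of the general macrophage list, 15 rose and 0 fell, with a median difference of 0.43 against -0.00277 over all named genes, and the same counts at equal Eif2s3y. Cd53, a tetraspanin of leukocytes, had a median of 0.26 in Mmp12-high mice against -0.40 in Mmp12-low mice. Adgre1, the macrophage antigen F4/80, had medians of 0.23 and -0.21 and rose by 0.49 ± 0.06, and Csf1r, the receptor for the macrophage growth factor CSF1, had medians of 0.25 and -0.19 and rose by 0.46 ± 0.08. The complement subunits C1qa, C1qb and C1qc rose by 0.48 ± 0.09, 0.21 ± 0.04 and 0.54 ± 0.08. Cd68, a lysosomal membrane protein of macrophages, differed by 0.09 ± 0.03 (limma adjusted p = 0.0791), and Lyz2, lysozyme, and Spi1, the gene of PU.1, by -0.04 ± 0.05 and -0.01 ± 0.02. No intensities were at hand, so a probe with little signal cannot be told from a gene that did not vary.

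A macrophage score was formed as the mean z-score of these 22 genes. It averaged 0.389 ± 0.42 in Mmp12-high mice and -0.336 ± 0.51 in Mmp12-low mice (SD, n = 71 each). The ranges overlapped, from -0.51 to 1.47 in Mmp12-high mice and from -1.55 to 1.27 in Mmp12-low mice. The difference of 0.725 had a 2-sided permutation p of 1e-05, the smallest that 100000 resamples can give. It was 0.691 with Eif2s3y above -2 and 0.633 below, and 0.689 and 0.762 in the lower-numbered and the higher-numbered mice.

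Genes of lipid-laden macrophages rose too, against 6.6% of all named genes that rose and 3.53% at equal Eif2s3y. Of 27 measured genes, 15 rose and 0 fell in the plain fit, and 14 rose and 0 fell at equal Eif2s3y, with a median of 0.19 in both. Besides Itgad, Trem2, Itgax and Gpnmb, these were Slc37a2, a sugar phosphate exchanger of macrophages (0.69 ± 0.07), Ctsk, cathepsin K (0.51 ± 0.05), Abcg1, a cholesterol exporter (0.48 ± 0.09), and Fabp5, a fatty acid binding protein (0.44 ± 0.05). Plin2, a coat protein of lipid droplets, rose by 0.38 ± 0.09 and Lipa, the lysosomal acid lipase, by 0.19 ± 0.03. Lpl, Cd36 and Cd9 differed by -0.05 ± 0.06, 0.08 ± 0.06 and 0.13 ± 0.06 without a call. Muscle fibres or vessels also express some members of this list, and which cells gave each value was not tested. The list holds Itgad, which was named with Mmp12 when the comparison was proposed.

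Of 18 measured genes of resident or alternatively activated macrophages, 9 rose and 1 fell in the plain fit, with a median difference of 0.21, and 7 rose and 0 fell at equal Eif2s3y, with a median of 0.15. The shares of all named genes that rose were 6.6% and 3.53% in these fits. Ccl8 rose most, by 1.39 ± 0.15. Clec10a, a galactose-type lectin, rose by 0.71 ± 0.09, Folr2, a folate receptor, by 0.45 ± 0.08, Mrc1, the mannose receptor, by 0.37 ± 0.08 and Cd163, the haemoglobin scavenger receptor, by 0.35 ± 0.08. Lyve1, Arg1 and Timd4 differed by 0.01 ± 0.05, -0.05 ± 0.05 and 0.04 ± 0.06. Gas6, the one member that fell (-0.14 ± 0.04), had 0.02 ± 0.04 at equal Eif2s3y.

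**Figure D4:**
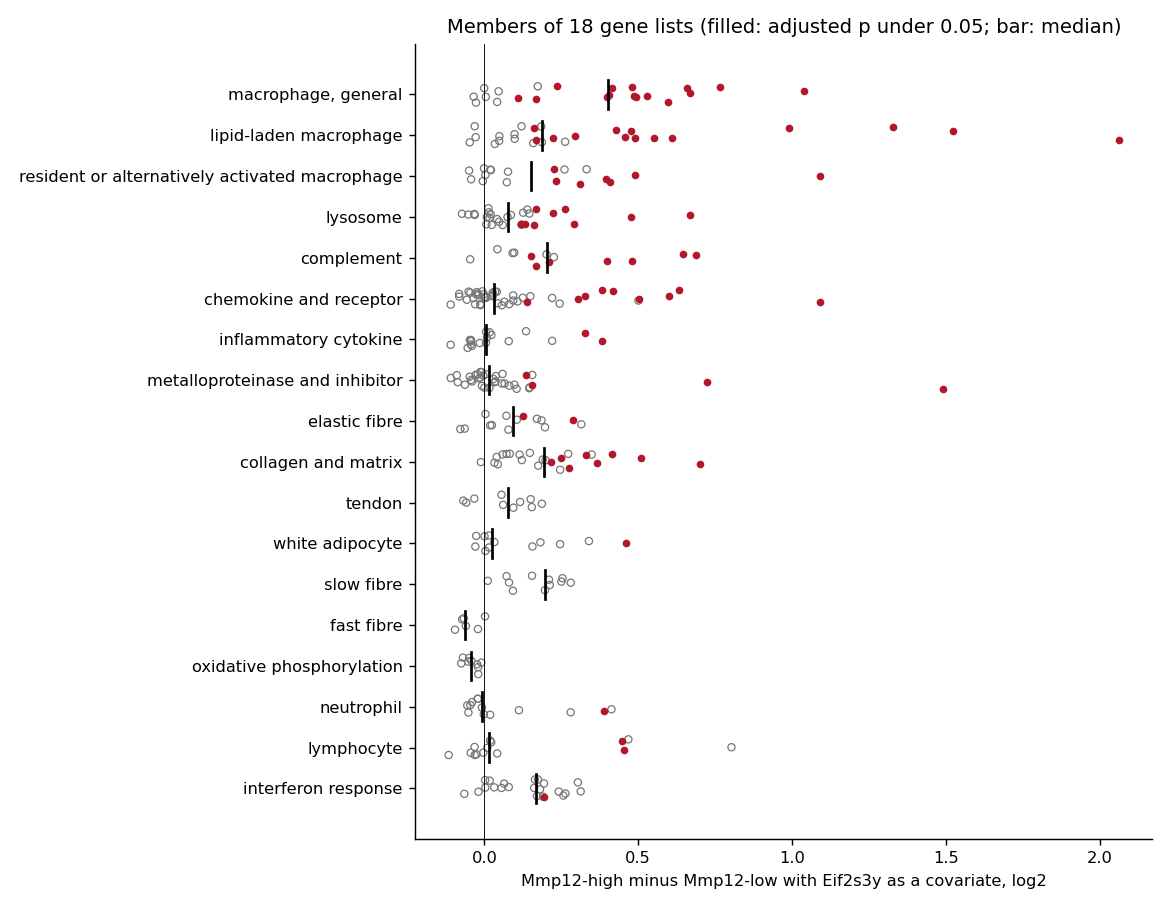
Mmp12-high minus Mmp12-low in log2 with Eif2s3y as a covariate (horizontal axis) for each measured member of 18 gene lists (rows); filled points have a limma adjusted p under 0.05, open points do not, and bars are medians. Filled points are many in the 3 macrophage lists and also in complement (7 of 13), collagen and matrix (8 of 24) and lysosome (9 of 29). The slow fibre, fast fibre, oxidative phosphorylation and tendon lists have 0. Of all named genes 3.53% rose at equal Eif2s3y, so 0 in lists this short is near that share.

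Of 46 measured chemokines and receptors, which attract leukocytes, 11 rose and 1 fell in the plain fit, and 9 rose and 0 fell at equal Eif2s3y, against 6.6% and 3.53% of all named genes that rose. Ccl7 and Ccl2, monocyte attractants, rose by 0.58 ± 0.13 and 0.46 ± 0.10, and Ccl9, Ccl6, Ccl3 and Ccl4 by 0.45 ± 0.06, 0.36 ± 0.06, 0.35 ± 0.06 and 0.30 ± 0.05. Cxcl9, a T cell attractant, was called only at equal Eif2s3y, with 0.63 ± 0.14 there against 0.34 ± 0.12 in the plain fit. Of 18 inflammatory cytokine genes, 3 rose and 0 fell in the plain fit (Ccl3, Ccl4 and Il18). Il18, a cytokine of the interleukin 1 family, had 0.13 ± 0.04 in the plain fit and 0.14 ± 0.05 without a call at equal Eif2s3y. Tnf differed by 0.06 ± 0.03 (limma adjusted p = 0.325), Il1b by 0.02 ± 0.03 and Il6 by 0.05 ± 0.08, without a call.

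Complement and lysosome genes rose as well, against 6.6% of all named genes that rose and 3.53% at equal Eif2s3y. Of 13 complement genes 9 rose and 0 fell, and 7 rose at equal Eif2s3y. C4b had medians of 0.34 in Mmp12-high mice and -0.69 in Mmp12-low mice, and Cfb, factor B of the alternative pathway, had 0.27 and -0.53. Cfb rose by 0.75 ± 0.09, and by 0.69 ± 0.11 at equal Eif2s3y. Of 29 lysosome genes 12 rose and 0 fell, and 9 rose at equal Eif2s3y. Lgmn, the protease legumain, rose by 0.25 ± 0.04, Gusb, beta-glucuronidase, by 0.19 ± 0.03, and Glb1, beta-galactosidase, by 0.14 ± 0.03.

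Of 35 measured metalloproteinases and inhibitors, 5 rose and 0 fell in the plain fit, against 6.6% of all named genes that rose, with a median of 0.02, and 4 rose at equal Eif2s3y. After Adam8 the largest was Mmp3, stromelysin 1, with medians of 0.21 in Mmp12-high mice and -0.38 in Mmp12-low mice and a difference of 0.48 ± 0.10, and 0.72 ± 0.12 at equal Eif2s3y. Mmp11 and Adamts5 rose by 0.22 ± 0.04 and 0.20 ± 0.03. The gelatinases Mmp2 and Mmp9 differed by 0.13 ± 0.07 and 0.01 ± 0.03 without a call.

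Mmp12 lies in a cluster of metalloproteinase genes. Of its 10 nearest measured neighbours in the RefSeq order Mmp3 was called in both fits and the others were not. Of all 11621 named genes 358 were called in both fits, so a count among 10 genes says little about the cluster. Mmp13, the next gene on one side, differed by 0.05 ± 0.06, and Mmp1b, the next on the other, by 0.08 ± 0.11. Casp12 and Casp4, caspases further along, differed by 0.48 ± 0.10 and 0.22 ± 0.07 with a call, and by 0.07 ± 0.09 and 0.19 ± 0.09 without one at equal Eif2s3y.

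The substrates and scaffold of the matrix rose in part, against 6.6% of all named genes that rose and 3.53% at equal Eif2s3y. Of 14 elastic fibre genes 7 rose and 0 fell, but 2 were called at equal Eif2s3y, Mfap2 and Mfap5, microfibril proteins, with 0.29 ± 0.06 and 0.13 ± 0.03. Eln, elastin itself, differed by 0.01 ± 0.06. Of 24 collagen and matrix genes 5 rose and 0 fell, and 8 rose at equal Eif2s3y. In the plain fit 21 of the 24 were positive (median 0.13), and 23 at equal Eif2s3y (median 0.19). Col5a2, a fibrillar collagen chain, rose by 0.45 ± 0.07, and Sparc, a collagen-binding protein, by 0.39 ± 0.07. Postn, periostin, was called only at equal Eif2s3y, with 0.70 ± 0.13 there against 0.33 ± 0.12 in the plain fit. Of 10 tendon genes 0 were called in either fit.

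Markers of other leukocytes are set against the 6.6% of all named genes that rose. Of 13 neutrophil genes 1 rose, S100a8, a calcium-binding protein of neutrophils and monocytes (0.38 ± 0.08). Of 11 genes of dendritic cells and MHC class II 2 rose, H2-Eb1 (0.47 ± 0.11) and H2-Aa (0.26 ± 0.07), both class II chains. Macrophages also express these chains, and the cells behind the rise were not tested. Of 14 lymphocyte genes 2 rose in the plain fit, Cd22, a B cell receptor, and Il7r, the interleukin 7 receptor, and at equal Eif2s3y 2 rose, Il7r and Blnk, an adaptor of B cell signalling. The T cell receptor subunits Cd3d and Cd3e differed by 0.06 ± 0.06 and 0.00 ± 0.03. Of 22 interferon response genes 1 rose in each fit, Oasl1 in the plain fit and Ifih1 at equal Eif2s3y, where 3.53% of all named genes rose. Of the 22 genes, 15 were positive in the plain fit (median 0.06) and 20 at equal Eif2s3y (median 0.17). The medians over all named genes were -0.00277 and -0.0102. Of the cell cycle genes 5 of 18 rose in the plain fit and 6 of 18 at equal Eif2s3y, led by Birc5, survivin, with 0.35 ± 0.07 and 0.50 ± 0.09.

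Of the genes of the muscle fibre itself few were called. Of all named genes 6.6% were higher and 4.23% lower, and 3.53% and 0.232% at equal Eif2s3y, so few calls are near the share in lists this short. Of 9 oxidative phosphorylation genes, 11 glycolysis genes and 6 fast fibre genes, 0 were called in either fit, with medians between -0.02 and 0.01 in the plain fit. At equal Eif2s3y their medians were -0.04, -0.05 and -0.06, and 0 of 9, 3 of 11 and 1 of 6 members were positive. Of 11 slow fibre genes 1 was called in the plain fit, Mb, myoglobin (0.16 ± 0.05), and 0 at equal Eif2s3y. The slow fibre median turned from -0.22 in the plain fit to 0.20 at equal Eif2s3y, where 11 of 11 members were positive. Regeneration genes had 2 of 14 higher and 2 lower, and atrophy genes 1 of 12 higher, and none of these was called at equal Eif2s3y. Of the other cell types a muscle sample can hold, endothelium (12 genes), Schwann cells (8) and keratinocytes (8) had 0 called genes, as had the 16 immediate early genes. Smooth muscle had 1 of 7 higher, erythroid genes 3 of 6 higher and heat shock genes 1 of 12 lower in the plain fit, and 0 at equal Eif2s3y.

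Fat genes differed by single members. These counts stand beside 6.6% of all named genes higher and 4.23% lower, and 3.53% and 0.232% at equal Eif2s3y. With lists this short, they say little about fat genes as a set. Of 12 white adipocyte genes 2 rose, Aoc3, an amine oxidase of fat cells (0.38 ± 0.10), and Adig, adipogenin (0.36 ± 0.07), and only Aoc3 was called at equal Eif2s3y. The white adipocyte score, the mean z-score of the 12 genes, averaged 0.035 ± 0.38 in Mmp12-high mice and -0.105 ± 0.42 in Mmp12-low mice (SD). Fabp4 and Lep differed by -0.02 ± 0.05 and 0.04 ± 0.04. With the white adipocyte score as a covariate the Itgad difference was 2.36, against 2.40 in the plain fit. The score differed little between the groups, so this fit could change the value little. Whether fat in the samples bears on Itgad was not tested. Of 14 fatty acid synthesis genes 2 rose in the plain fit, Scd2, a stearoyl-CoA desaturase (0.72 ± 0.08, and 0.51 ± 0.09 at equal Eif2s3y), and Srebf1, a regulator of lipid synthesis (0.58 ± 0.09, and 0.16 ± 0.08 without a call at equal Eif2s3y), and Mlxipl, another regulator of lipid synthesis, fell by 0.15 ± 0.05 in the plain fit alone. Scd1, a second desaturase, was called only at equal Eif2s3y (0.47 ± 0.12). Fatty acid oxidation genes had 1 of 13 higher and 1 lower, and brown adipocyte genes 1 of 11 higher and 1 lower, in the plain fit, and 0 at equal Eif2s3y.

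Of the 10 genes with the largest negative difference, only Acsm3 and Cyp2e1 were called again at equal Eif2s3y. Acsm3, a medium-chain acyl-CoA synthetase, had -1.50, -0.25 and 1.32 in Mmp12-high mice, against -1.49, 0.52 and 3.10 in Mmp12-low mice. It fell by 0.85 ± 0.14 (limma adjusted p = 1.77e-06), and at equal Eif2s3y by 0.56 ± 0.16 (limma adjusted p = 0.0297). It was not called within either Eif2s3y range alone. Cyp2e1, a cytochrome P450 with high levels in liver, had -0.68, -0.11 and 0.96 in Mmp12-high mice, against -0.45, 0.40 and 2.55 in Mmp12-low mice, with 6 of 71 Mmp12-high mice above the Mmp12-low median. It fell by 0.55 ± 0.08, and by 0.46 ± 0.10 at equal Eif2s3y. Its difference was -0.81 in the higher-numbered mice and -0.17 in the lower-numbered mice (limma adjusted p = 0.117), and with Eif2s3y below -2 it was -0.54 (limma adjusted p = 0.153), so the call was lost in those subsets. The other 10 measured hepatocyte genes were not called in either fit.

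The other 8 genes of that set were Greb1, an oestrogen-responsive gene, Acox2, an oxidase of peroxisomes, Il15, a cytokine made by muscle, Neu2, a sialidase, Actg2, an actin of smooth muscle, Pcx, pyruvate carboxylase, Ces1d, a carboxylesterase, and Lrfn4, a neuronal adhesion protein. Their plain differences ran from -0.66 to -0.45. At equal Eif2s3y they ran from -0.17 to 0.06 and none was called. Greb1 had -0.66 ± 0.14 in the plain fit and -0.05 ± 0.14 at equal Eif2s3y.

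Which genes differed between mice with like levels of general macrophage RNA was asked with the macrophage score as a covariate. At equal score 433 named genes were higher (3.73%) and 482 lower (4.15%), and with Eif2s3y in the same fit 79 were higher (0.68%) and 27 lower (0.232%). In that joint fit Itgad was higher by 1.97 ± 0.22, Ubd by 1.67 ± 0.18, Hp by 1.40 ± 0.20, Trem2 by 1.10 ± 0.08, Itgax by 1.04 ± 0.09, Adam8 by 0.97 ± 0.10 and Tfr2 by 0.94 ± 0.12. Each of these 7 kept its call, with limma adjusted p-values from 4.2e-23 for Trem2 to 1.28e-07 for Hp. Gpnmb had 0.61 ± 0.12 and was called, while Ccl8 had 0.25 ± 0.15 and C4b 0.33 ± 0.13 without a call.

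In this fit 0.68% of all named genes were higher and 0.232% lower. The lists are read against these shares, and 0 higher genes in a list is near the first. Of the 27 lipid-laden macrophage genes 6 stayed higher (Itgad, Trem2, Itgax, Gpnmb, Fabp5 and Ctsk), of the 18 resident macrophage genes 0, of the 46 chemokine genes 0 (Ccl21a was lower, by -0.22), and of the 13 complement genes 0. In the general list, which forms the score, Mpeg1 (0.41 ± 0.07) and Ctss (0.36 ± 0.04) stayed higher. Of the 29 lysosome genes 3 stayed higher, Ctss, Ctsk and Gusb. The medians were 0.12 for the lipid-laden list and -0.09 for the resident list, against 0.00127 over all named genes. The slow fibre and tendon lists lay further from that value. Their medians were 0.52 (11 of 11 members positive) and -0.53 (1 of 10 positive). C1qa, C1qb and C1qc of the complement list, Ctss and Cd68 of the lysosome list and Cx3cr1 of the chemokine list also enter the score, so the fit itself bears on their values. Of the 11 slow fibre genes 2 became called in this fit, Atp2a2 (0.86 ± 0.23), the calcium pump of slow fibres, and Fhl1 (0.52 ± 0.12), an LIM protein of muscle.

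**Figure D5:**
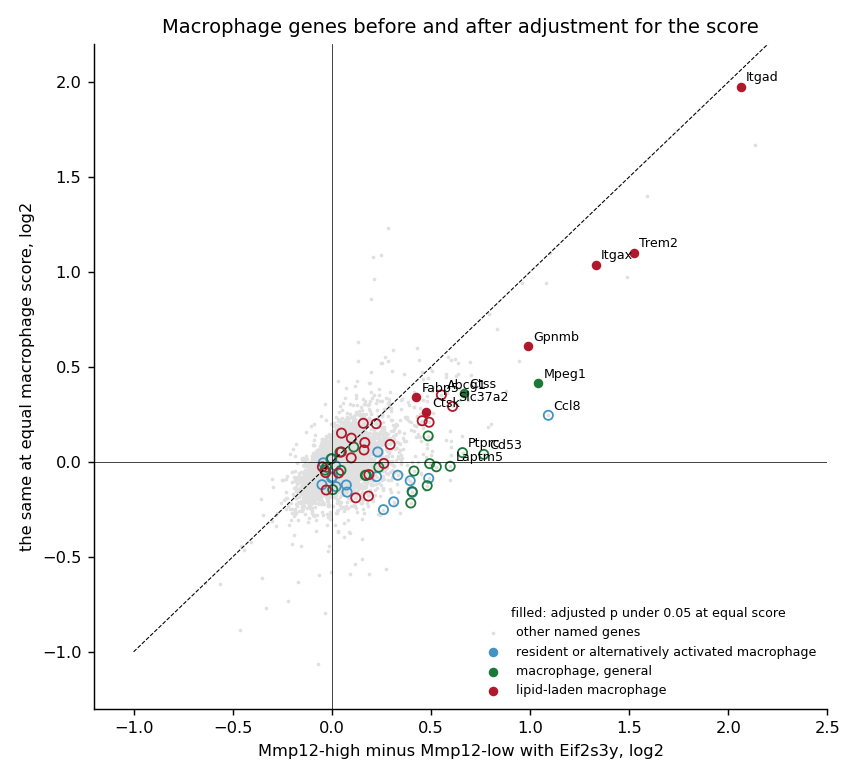
Mmp12-high minus Mmp12-low in log2 with Eif2s3y as a covariate (horizontal axis) and with the macrophage score added (vertical axis); points are genes, coloured for 3 macrophage lists, filled where the limma adjusted p at equal score is under 0.05, and the dashed line marks equal values. Itgad lies close to the line (2.06 and 1.97), while Ccl8 drops to 0.25.

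Without Eif2s3y in the fit, the genes that were lowest at equal macrophage score were Ucp1, the uncoupling protein of brown fat (-1.27), Kera and Chad, matrix proteins of tendon (-1.23 and -0.97), Acsm3 (-0.91) and Tnc, a matrix protein of tendon and injury (-0.82). In the joint fit with Eif2s3y they had -0.89 ± 0.42, -1.06 ± 0.34, -0.80 ± 0.30, -0.64 ± 0.19 and -0.57 ± 0.23, and none was called. Cds1, a phospholipid synthesis enzyme that was among the 10 highest at equal score, had 0.08 ± 0.10 in the joint fit.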

How the data were processed

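Per the labels, RNA of each mouse (Cy3) was hybridised with a pool of all samples (Cy5) on a 2-colour array. The deposited table holds 23560 probes by 285 arrays; its values, already normalised by the authors by steps not given in the sources used here, were taken as log10 of the mouse to pool ratio. Array medians lay between -0.0222 and 0.0173, values are bounded at 2 and -2, and read as mouse over pool the Y-linked Eif2s3y has a mean linear ratio of 0.796, against 23.2 with the sign turned. Pairs of arrays correlated down to -0.746, and 2.49% of pairs lay below -0.3; the labels state the dyes and single mice can oppose each other around a pool, so the direction was kept. With the sign turned, the groups and all signs swap together. Were the base 2, all log2 values would be smaller by one factor, with the same calls. The table holds no intensities, so signal over background is unknown and the number of arrays limits the precision.

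Probes measured on 80% or more of the arrays (23510) were converted to log2 and averaged per gene, which left 11622 named genes (12650 symbols updated through Entrez identifiers) and 9890 unnamed probes. Mmp12 was left out, and the groups were compared with limma 3.58.1 (lmFit, eBayes) in R 4.3.3, with p-values adjusted over all 21511 features by the Benjamini-Hochberg method and calls at 0.05. In a test on simulated data with independent genes and no sex difference, shifts of 1 and 2 SD were recovered. Smaller shifts were simulated too and are not given here. The test does not show how the fit fares where genes vary together. A second fit added the macrophage score, and alternatives added Eif2s3y and other covariates. The limit of -2 for Eif2s3y was set after its values were seen. The members and gene lists were chosen with earlier results of these data known. Genes were named by a rule: the 15 highest and 10 lowest called, the 10 highest and 5 lowest called at equal score, the 8 most like Mmp12, up to 8 per list by size, and neighbours of Mmp12 and Itgad. Named outside the rule, after their values were seen, were further list members (such as Csf1r, Adgre1, Cd68, Il1b, Il6 and Plin2) and Mest, Ptger3, Fads3, Clec7a, Slamf8, Dkk3, Tbx1, Fam131a and Scg3. No 2 arrays were identical. Separate mice are taken as replicates, and relatedness among them was not modelled.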

Additional observations from a re-analysis of the deposited data

How the results depend on the processing

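Itgad stayed higher in Mmp12-high mice, with an adjusted p under 0.05, under all 21 alternatives run, and the macrophage score under its 4. Over the 39 single-gene results there were 832 alternatives, of which 720 kept the direction and the side of the threshold, 101 lost the call and 11 turned sign. Counts that moved by more than 1.5 times follow, as genes higher and lower of 767 and 491. They were 299 and 109 in the higher-numbered mice, 480 and 222 outside mouse numbers 51 to 90 and 271 to 310, 410 and 27 with Eif2s3y as a covariate, 169 and 18 with Eif2s3y above -2, 78 and 3 below -2, and 46 and 3 at 1.5-fold or more. The lower count alone moved with the outer 2 of 3 equal parts of the ranking (741), with a slope on Mmp12 (752) and with groups drawn within each Eif2s3y range (141). At equal macrophage score the main counts were 433 and 482. They were 56 and 52 in the higher-numbered mice, 169 and 194 outside those mouse numbers, 29 and 13 for the outer 2 of 10 equal parts, 800 and 765 for those of 3, 982 and 1042 for the slope, 79 and 27 with Eif2s3y, 767 and 817 with the first principal component, 25 and 7 with Eif2s3y above -2, 19 and 4 below -2, 167 and 98 for groups within each Eif2s3y range, and 21 and 10 at 1.5-fold or more. The higher count was 873 with the first component of the macrophage list as the score, and the lower count 291 with runs of 20 mouse numbers as a block and 297 with groups drawn within those runs. With Eif2s3y as a covariate Acox2 turned to 0.019, Neu2 to 0.00125, Ces1d to 0.060 and, at equal macrophage score, Kdm5d to -0.012. With groups drawn within each Eif2s3y range Acox2 had 0.088, Neu2 0.0041, Pcx 0.00041 and Ces1d 0.11. With Eif2s3y above -2 Neu2 had 0.11 and Ces1d 0.31, and below -2 Mss51 had -0.073. The subsets hold fewer mice; for the other settings the cause was not tested. The alternatives that use the 2 Eif2s3y ranges were chosen after seeing the data. Mmp12 has 1 probe, so no fit by single probe was run. No paired analysis was possible because the labels give no replicate numbers that link mice of the 2 groups.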

Other observations

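Some genes outside the lists were also higher in Mmp12-high mice at equal macrophage score and Eif2s3y. They were chosen after their values were seen. Kcnj14, the potassium channel described above, had a median of 0.19 in Mmp12-high mice and -0.73 in Mmp12-low mice and differed by 0.94 ± 0.16 in the joint fit (limma adjusted p = 4.47e-05). Mest, an imprinted gene known to rise with fat tissue expansion, had 0.03 and -0.60 and differed by 0.78 ± 0.21. Ptger3, a prostaglandin E2 receptor, had 0.32 and -0.41 and differed by 0.70 ± 0.14. Fads3, a member of the fatty acid desaturase family, had 0.31 and -0.36 and differed by 0.45 ± 0.12. The myeloid receptors Clec7a (dectin-1) and Slamf8 differed by 0.38 ± 0.07 and 0.38 ± 0.08. Lower in the joint fit were Dkk3, a secreted protein of the Dickkopf family (-0.77 ± 0.20), Tbx1, a transcription factor (-0.73 ± 0.20), and Cyp2e1 (-0.44 ± 0.12). Dkk3 and Tbx1 had plain differences of 0.25 ± 0.17 and -0.16 ± 0.15 without a call.

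Called in both the plain fit and that with Eif2s3y, but with opposite signs, were 2 genes, Fam131a (0.23 and -0.17) and Scg3 (-0.30 and 0.23).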
